A study of Mus musculus with 12 samples.

Results

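Dual immune checkpoint blockade given alone (ICB, 3 tumours) was compared with control immunoglobulin (Control, 3 tumours) in mouse tumours of the intrahepatic bile ducts (cholangiocarcinoma). These 6 libraries are part of a series of 12. The other 6 are tumours given chemotherapy (GC, an abbreviation that the labels do not spell out) or chemotherapy with dual blockade (Combination), 3 each. All tumours are labelled 425-ICC and were taken after 8 days of treatment; by the series title the antibodies block CTLA-4 and PD1. The sources used here give no strain, sex, age, dose or schedule. Expression was measured by bulk sequencing of total RNA from tumour tissue and deposited as FPKM, fragments scaled to transcript length and to the total mapped. Of 24421 gene symbols, the 11993 with a mean of at least 1 FPKM over the 6 libraries were tested. Differences are given on the log2(FPKM + 1) scale as ICB minus Control, with the standard error (SE). This scale understates the change of genes with low values. A gene is called changed when its adjusted p in limma, a linear model fitted to all genes with the Benjamini-Hochberg correction, is under 0.05.

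CTLA-4 and PD-1 are inhibitory receptors of T cells: CTLA-4 competes with the costimulatory receptor CD28 for its ligands, and PD-1 dampens signalling from the T cell receptor when it meets its ligand PD-L1 (gene Cd274). Blocking them is meant to free T cells, whose interferon gamma induces antigen presentation and the chemokines Cxcl9 and Cxcl10 in surrounding cells. In the liver, hepatocytes make most plasma proteins and, in inflammation, raise a set of them called acute phase proteins under the control of interleukin 6, STAT3 and C/EBP factors.

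The libraries differed in ways that the treatment labels do not describe. The ribosomal RNA precursor Rn45s was at 1518, 26773 and 8744 FPKM in ICB replicates 1, 2 and 3 and at 3901, 957 and 1049.6 in Control replicates 1, 2 and 3. Control replicate 2 held skeletal muscle RNA (actin Acta1 at 348 FPKM, at most 0.82 in the other 5), and Control replicate 1 was low in macrophage genes. Reads of the near-identical genes Rps27 and Rps27rt were given to Rps27rt in ICB replicate 1 and to Rps27 in the other 5 libraries. All 3 GC libraries were like ICB replicate 1 in this and the Combination libraries like the other 5, so those 4 libraries may have been processed differently. FPKM keeps no read counts, so depth is unknown. The labels do not link samples to separate animals, so the p-values cover only the variation among these samples, part of which may be technical.

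Blockade alone was accompanied by a rise of liver-secreted plasma protein transcripts. Of the 11993 genes, 34 were called (0.283%), all of them higher in ICB, and 0 were lower. At an unadjusted p under 0.05, limma gave 352 genes higher (2.94%) and 184 lower (1.53%). Among the 34 were the fibrinogen chains Fga, Fgb and Fgg; the acute phase proteins Hp, Hpx, Orm1, Orm2, Apcs, Hamp, Fgl1, Itih3 and Itih4; the carriers Trf, Rbp4, Gc, Serpina7, Ambp, Apoa5 and Azgp1; the coagulation and kinin genes F2, Cpb2, Kng1 and Kng2; the protease regulators Ahsg, Fetub, Itih2 and Pzp; the growth factor binding protein Igfbp1; the metabolic enzyme Fbp1; the liver lipid droplet protein Hsd17b13; and Mettl7b, Ly6d and Mir6929. In 31 of the 34, all Control libraries were under 10 FPKM. ICB replicate 1 was the lowest ICB library in all 34, and ICB replicate 3 was the highest in 32.

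The 34 calls depend on single libraries and on the scaling. None was made without ICB replicate 2 or without Control replicate 2, after TMM or quantile scaling, or when the spread was estimated with the GC libraries or with all 12, and 73 genes were called without ICB replicate 1 and 120 without Control replicate 1. The difference stayed positive for each of the 34 under every setting run.

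**Figure D1:**
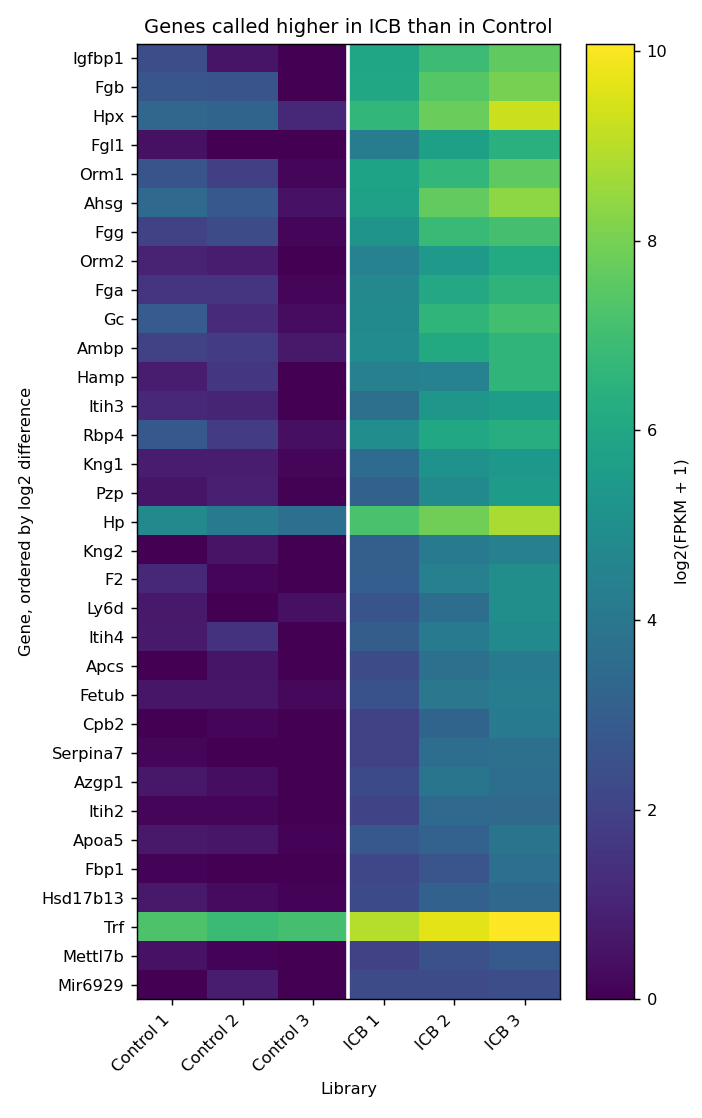
Heat map of log2(FPKM + 1) for 33 of the 34 called genes (rows, ordered by the size of the difference) in each of the 6 libraries (columns, with a white line between Control and ICB). Most rows are near 0 in Control; ICB replicate 1 is the lowest ICB library in every row, and Trf and Hp are well above 0 in Control too.

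The largest difference was that of Igfbp1, which binds insulin-like growth factors. Igfbp1 was at 59.3, 119.7 and 193 FPKM in ICB replicates 1, 2 and 3 and at 4.2, 0.473 and 0 in Control replicates 1, 2 and 3, an order kept for all values below. Every ICB library was above every Control library, by 5.83 ± 0.61 (SE; adjusted p = 0.0112). The fibrinogen chains, whose protein forms the clot, moved together. Fgb was at 62.3, 171 and 253 in ICB and 5.55, 5.16 and 0 in Control, and its difference was 5.36 ± 0.73 (adjusted p = 0.0284). Fga differed by 4.72 ± 0.52 (adjusted p = 0.0112) and Fgg by 4.92 ± 0.62 (adjusted p = 0.0187). In all 3 chains Control replicate 3 was the lowest library and ICB replicate 3 the highest.

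Hemopexin (Hpx), a scavenger of free heme, was at 99.7, 219 and 621 FPKM in ICB and 9, 8.37 and 1.2 in Control, a difference of 5.34 ± 0.71 (adjusted p = 0.0278). ICB replicate 3 stood well above the other ICB libraries. The orosomucoids, acute phase carriers of small molecules, are near-identical in sequence, so their reads may be split between copies. Orm1 was at 56.4, 101 and 192 in ICB and 5.06, 2.71 and 0.122 in Control (5.15 ± 0.61; adjusted p = 0.0158), and Orm2 at 21, 42.2 and 70.9 and 1.02, 0.765 and 0 (4.74 ± 0.44; adjusted p = 0.0103). The groups did not overlap in either. Hamp encodes hepcidin, the hormone that closes iron export. Hamp was at 19.9, 21.1 and 94.3 in ICB and 0.755, 2 and 0 in Control, with replicate 3 again apart from the other ICB libraries (4.34 ± 0.60; adjusted p = 0.0284).

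Fgl1, a secreted liver protein that is also a ligand of the T cell checkpoint receptor LAG-3, was among the genes of smallest p. Its values were 18.4, 51.4 and 84.1 FPKM in ICB and 0.354, 0 and 0 in Control. It was listed at 0 in 2 Control libraries, and every ICB library was above every Control library (5.32 ± 0.48; adjusted p = 0.0103). The gene lies on chr8:41191434-41215156 (GRCm38, minus strand). Its receptor gene Lag3 was at 1.85, 1.57 and 2.71 in ICB and 3.89, 0.949 and 0.386 in Control, ranges that overlap (adjusted p = 0.998). In the other treated groups Fgl1 was also present, at 63.5, 9.19 and 174 in GC and 8, 807 and 270.5 in Combination.

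Ahsg (fetuin-A, an inhibitor of calcification) and the carriers Gc (the vitamin D binding protein) and Ambp (the precursor of alpha-1-microglobulin and bikunin) completed the 12 largest rises. Ahsg was at 53.6, 198 and 330.3 FPKM in ICB and 10.02, 5.9 and 0.389 in Control (5.02 ± 0.81; adjusted p = 0.04999, just inside the threshold). Gc differed by 4.63 ± 0.70 (adjusted p = 0.0391) and Ambp by 4.38 ± 0.48 (adjusted p = 0.0112). Transferrin (Trf), the iron carrier, had the highest Control values of the 34. Trf was at 496, 818 and 1075 in ICB and 154, 116 and 135 in Control, a smaller difference on this scale (2.49 ± 0.29; adjusted p = 0.0148). Haptoglobin (Hp), which binds free hemoglobin, was at 145, 237 and 439.6 and 25.9, 16.7 and 11.8 (3.77 ± 0.41; adjusted p = 0.0112). Fbp1, a gluconeogenic phosphatase, was at 3.37, 5.27 and 11.9 in ICB and 0.067, 0 and 0 in Control (2.79 ± 0.40; adjusted p = 0.0319). The other called genes differed by between 2.09 ± 0.32 (Mir6929) and 4.16 ± 0.51 (Itih3).

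Since many called genes are known targets of shared liver and acute phase factors, the 250 bases before each start in the RefSeq promoter table (GRCm38.p6) were searched on both strands. Some of these starts, such as those of Ahsg, Itih2 and Kng2, lie inside the gene as GENCODE gives it. Of the 34 genes, 26 were in the table, with 30 windows. The C/EBP motif TTGCNNAA was found in 33.3% of their windows and in 9.56% of all 32851 windows, the HNF1 half-site GTTAAT in 23.3% and 6.43%, and the STAT motif TTCNNNGAA in 16.7% and 7.02%. Windows of 1 gene can overlap and are each counted. By gene, the C/EBP, HNF1 and STAT motifs were found in 9, 6 and 5 of the 26. Others, among them Fgg, Itih3, F2 and Ambp, held none of the 3. The called genes are mostly liver genes, and liver genes that were not called were not compared. The shares therefore do not bear on the treatment. Windows of 3 of the called acute phase genes are shown, because together they hold each of the motifs; capitals mark the matches on either strand. A match describes letters, not binding. Fgb (chr3:83049864-83050113, minus strand) holds all 3 motifs, Orm2 (chr4:63362199-63362448, plus strand) the C/EBP motif, and Hamp (chr7:30944030-30944279, minus strand) the STAT motif.
Fgb: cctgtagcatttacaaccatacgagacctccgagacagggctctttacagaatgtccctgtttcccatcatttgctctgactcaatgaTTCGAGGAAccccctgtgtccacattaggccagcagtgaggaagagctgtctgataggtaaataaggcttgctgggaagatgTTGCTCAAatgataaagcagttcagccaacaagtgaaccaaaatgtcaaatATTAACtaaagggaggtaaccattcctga
Orm2: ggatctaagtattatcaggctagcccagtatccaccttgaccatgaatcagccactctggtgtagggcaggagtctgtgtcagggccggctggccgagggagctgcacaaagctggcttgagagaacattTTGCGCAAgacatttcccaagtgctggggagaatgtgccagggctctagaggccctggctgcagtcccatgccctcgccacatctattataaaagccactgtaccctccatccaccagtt
Hamp: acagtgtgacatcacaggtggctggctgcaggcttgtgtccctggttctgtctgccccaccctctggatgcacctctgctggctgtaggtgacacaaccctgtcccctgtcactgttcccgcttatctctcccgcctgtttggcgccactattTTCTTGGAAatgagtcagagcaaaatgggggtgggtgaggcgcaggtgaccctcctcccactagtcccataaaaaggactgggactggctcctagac

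Mir6929 was the one called microRNA gene. It was at 4.02, 4.12 and 4.39 FPKM in ICB and 0.0197, 0.743 and 0 in Control, with the ICB libraries close together (2.09 ± 0.32; adjusted p = 0.0431). The hairpin is annotated at chr11:101419187-101419253 (GRCm38, minus strand), inside the gene Ptges3l on the same strand, so reads of the host transcript and of the microRNA precursor cannot be told apart. Ptges3l itself was at 6.69, 6.12 and 6.86 in ICB and 6.02, 6.13 and 6.14 in Control (adjusted p = 0.998). Over so short a gene a few reads may make up the Mir6929 values, and without read counts this cannot be judged. In the other groups Mir6929 was at 0, 2.07 and 0.817 in GC and 0, 0 and 0 in Combination. The mature arms are given from RefSeq, with the seed (bases 2 to 8) in capitals; they share no seed.
mmu-miR-6929-5p: aGGGAGGAgcagcaucuguga
mmu-miR-6929-3p: cAGGUGCUgucuucuucuuccag

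Hepatocyte markers were mostly higher in ICB too, but the list used includes 6 of the called genes. Its counts, median and summed share are therefore not separate from these calls. Of 16 tested members of a hepatocyte list, 15 were higher in ICB, 13 did not overlap between the groups and 6 were called, with a median difference of 3.36; over all tested genes the median was -0.08, 39.1% were higher, 3.5% did not overlap with ICB higher, and 0.283% were called. Albumin (Alb) was at 41.7, 288 and 369 FPKM in ICB and 35.2, 24.1 and 2.95 in Control, without passing the test (3.44 ± 0.94; adjusted p = 0.476). ICB replicate 1 lay just above the highest Control library, and the other ICB libraries far above it. The apolipoprotein Apoa1 was at 47.4, 251 and 365 and 13, 11.2 and 0.894 (adjusted p = 0.108), and the thyroid hormone carrier Ttr at 6.55, 31.8 and 38.8 and 1.9, 1.89 and 0.399 (adjusted p = 0.0898). The summed hepatocyte list made up 0.148, 0.37 and 0.581 percent of all FPKM in ICB and 0.0389, 0.0353 and 0.0223 percent in Control. It was 0.639, 0.207 and 1.58 percent in GC and 0.824, 20.5 and 8.31 percent in Combination. Whether the rise of the plasma protein genes follows from more liver tissue in the samples was not tested. In bulk tissue, more cells of a type and more RNA per cell cannot be told apart.

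A list of acute phase plasma proteins and one of hepatocyte metabolic enzymes, both written after values had been seen, divided the liver genes by role. Of 19 tested acute phase genes, 19 were higher in ICB, 17 did not overlap and 12 were called, with a median difference of 3.77. C-reactive protein (Crp) had a listed value of 0 throughout Control and was at 0.827, 3.2 and 6.73 in ICB (adjusted p = 0.346). Serum amyloid Saa1 was at 10.4, 9.34 and 80.1 and 1.81, 3.19 and 0 (adjusted p = 0.335), with replicate 3 apart. Of 20 metabolic enzymes only 9 reached the tested level, and of these 7 were higher and 2 were called, with a median of 1.90. The called members of both lists are among the 34, so these counts and medians are not separate from those calls. Over all tested genes 39.1% were higher, 3.5% did not overlap with ICB higher, and 0.283% were called. The ratio of summed acute phase FPKM to albumin FPKM was 17.8, 4.46 and 7.08 in ICB and 8.08, 5.4 and 17.2 in Control, so the groups overlapped. It was 4.11, 2.99 and 5.5 in GC and 1.28, 0.555 and 0.531 in Combination, where albumin itself was at 217, 45398 and 16866 FPKM.

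The receptors that the antibodies target were low in all 6 libraries. Pdcd1, which encodes PD-1, was at 0.591, 0.593 and 2.53 FPKM in ICB and 0.102, 0.302 and 0.102 in Control. Ctla4 was at 0.627, 0.954 and 3.64 in ICB and 0.225, 0 and 0 in Control. In both genes every ICB library was above every Control library, ICB replicate 3 was several times the others, and the mean over the 6 libraries stayed under 1 FPKM, so neither was tested. Of 17 found genes of the T cell receptor complex and its signalling, 4 were tested and 0 called. Of these 4, 3 were higher in ICB and are given below, and 1 was lower. Lat, the adaptor that links the receptor to downstream kinases, was at 1.58, 2.45 and 4.45 in ICB and 0.812, 0.384 and 0.179 in Control (1.35 ± 0.37; adjusted p = 0.476). Cd3d was at 0.29, 1.26 and 4.55 and 0, 0.216 and 0 (1.24 ± 0.51; adjusted p = 0.998), and Cd3g at 0, 1.91 and 3.82 and 0, 0.415 and 0.239 (1.00 ± 0.54; adjusted p = 0.998). The groups overlapped for Cd3g, which was listed at 0 in ICB replicate 1.

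Effector genes showed the same low range. Granzyme B (Gzmb) was at 0.156, 0.214 and 1.41 FPKM in ICB and 0, 0 and 0.0598 in Control, and perforin (Prf1) at 0, 0.0683 and 0.324 and 0.145, 0 and 0. Cd8a was at 0, 0.0975 and 0.644 in ICB and 0, 0 and 0.0938 in Control. Interferon gamma (Ifng) was listed at 0 in all ICB libraries and at 0, 0.246 and 0 in Control. Cd4 was at 0.264, 0.0986 and 0.553 and 0, 0.178 and 0.094, and Foxp3, the factor of regulatory T cells, at 0.169, 0.359 and 0.196 and 0, 0.049 and 0.0852. None of these 6 genes reached the tested level. Differences in T cell number cannot be judged at values so near 0 with no read counts. Among costimulatory receptors, Tnfrsf18 (GITR) was at 3.15, 1.61 and 4.67 in ICB and 0.511, 1.46 and 1.3 in Control (adjusted p = 0.998). Tnfrsf9 (4-1BB) was far higher in level in both groups, at 49.4, 107 and 163 and 68.4, 38.8 and 46.9, with ICB replicate 1 inside the Control range (adjusted p = 0.998).

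**Figure D2:**
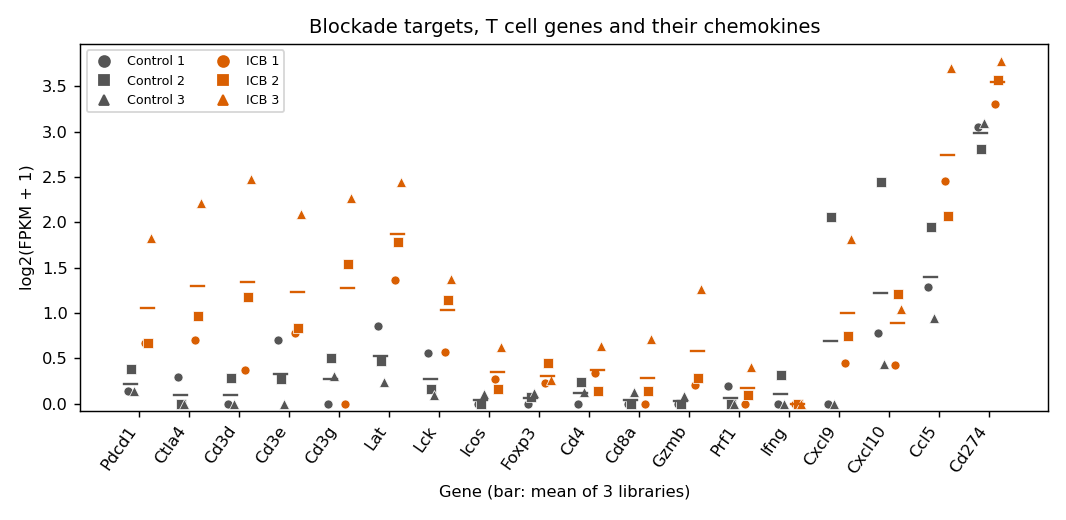
log2(FPKM + 1) of 18 genes in each of the 6 libraries (points; shape gives the replicate, grey Control, orange ICB, bar the group mean). Most T cell genes lie below 2.5, ICB replicate 3 is the highest library for most of them, and Cd274 is the highest of these genes in every library.

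The T cell chemokine list had 10 tested members, of which 9 were higher in ICB and 0 called, with a median difference of 0.44. Ccl5, made by T cells and NK cells, was at 4.5, 3.2 and 12 FPKM in ICB and 1.44, 2.86 and 0.929 in Control (1.35 ± 0.45; adjusted p = 0.878). The groups did not overlap, by a small margin in ICB replicate 2. The interferon-induced chemokines did not follow it. Cxcl9 was at 0.359, 0.679 and 2.51 in ICB and 0, 3.16 and 0 in Control (0.32 ± 0.60; adjusted p = 0.998). Cxcl10 was at 0.348, 1.31 and 1.06 and 0.72, 4.42 and 0.351 (-0.32 ± 0.52; adjusted p = 0.998). For both, Control replicate 2 was the highest library, and the sign of the difference turned when single libraries were left out.

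Interferon response and antigen presentation genes were slightly higher on balance, with none called. Of 20 tested interferon gamma response genes, 16 were higher in ICB (39.1% of all genes were), with a median difference of 0.34. Of 16 type I interferon response genes 14 were higher, with a median of 0.19. The means of both lists overlapped between the groups. Relative to the Control mean, the interferon gamma list was at 0.083, 0.184 and 0.756 in ICB and -0.389, 0.385 and 0.0049 in Control. The type I list was at 0.280, -0.0058 and 0.486 in ICB and -0.454, 0.403 and 0.051 in Control. PD-L1 (Cd274) was at 8.85, 10.9 and 12.7 FPKM in ICB and 7.28, 5.98 and 7.55 in Control. Every ICB library was above every Control library, but the difference of 0.57 ± 0.24 did not pass the test (adjusted p = 0.998). Of 18 tested genes of MHC class I presentation, 12 were higher (39.1% of all genes were) and 3 did not overlap (3.5% of all genes with ICB higher), with a median of 0.19. The class I heavy chain H2-K1 was at 139, 129 and 254 and 107, 103 and 107 (0.64 ± 0.27; adjusted p = 0.998), and its Control libraries lay close together. The invariant light chain B2m differed by 0.23 ± 0.22 (adjusted p = 0.998).

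MHC class II genes, used by antigen-presenting cells, had 8 of 9 tested members higher, none called and none without overlap, with a median difference of 0.71. Cd74, the class II invariant chain, was at 94.7, 169 and 279.6 FPKM in ICB and 11.5, 134 and 56.5 in Control (1.85 ± 0.75; adjusted p = 0.998). H2-Aa was at 53, 81.7 and 178 and 5.72, 80.2 and 22.6 (adjusted p = 0.998). Control replicate 1 was the lowest library in both, and Control replicate 2 lay inside the ICB range. That Control library was also low in the macrophage list, which summed to 3492, 7988 and 11273 FPKM in Control and 8189.7, 7075 and 10012 in ICB. Of 22 macrophage genes, 19 were higher in ICB and 0 called (median 0.62). The part of that library's macrophage content in the class II differences was not tested.

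Neutrophil genes were mostly higher, led by one library. Of 19 tested neutrophil genes, 17 were higher in ICB (39.1% of all genes were), 4 did not overlap (3.5% of all genes with ICB higher) and 0 were called, with a median difference of 1.13. S100a9, a subunit of the alarmin calprotectin, was at 31, 59.7 and 400.1 FPKM in ICB and 15.3, 9 and 48.6 in Control (2.20 ± 0.87; adjusted p = 0.998). Its partner S100a8 was at 33.7, 23.7 and 164 and 11.4, 8.31 and 36.6 (adjusted p = 0.998). ICB replicate 3 stood far above all other libraries in both, and ICB replicate 1 lay inside the Control range. For S100a8, ICB replicate 2 lay inside the Control range as well. Stefin A-like 1 (Stfa2l1) had a listed value of 0 throughout Control and was at 1.84, 1.28 and 4.67 in ICB (adjusted p = 0.238). The histidine decarboxylase Hdc was at 1.99, 0.973 and 2.73 and 0.144, 0.119 and 0.307 (adjusted p = 0.509), and the growth factor receptor Csf3r at 2.28, 2.93 and 6.76 and 0.388, 1.62 and 1.65 (adjusted p = 0.998). The CXCR2 ligand Cxcl3 did not overlap between groups, at 6.58, 8.83 and 14.4 in ICB and 5.85, 2.3 and 3.57 in Control (adjusted p = 0.744). Its relative Cxcl2 was at 18.5, 18.4 and 30.8 and 22.2, 3.7 and 6.48 (adjusted p = 0.998), and Lcn2, which binds bacterial iron carriers, at 121, 105 and 249 and 158, 2.14 and 3.78 (adjusted p = 0.956). For those genes Control replicate 1 was inside or close to the ICB range. Most red blood cell genes were also higher. Of 5 tested erythroid genes, 4 were higher (39.1% of all genes were), with a median difference of 1.58 and none called. The globins Hba-a2 and Hbb-bt, 2 of these genes, did not overlap (3.5% of all genes with ICB higher). The list summed to 1499, 706 and 2614 FPKM in ICB and 1100.2, 306 and 761 in Control, with ICB replicate 3 the highest and the groups overlapping. Reads of the near-identical alpha-globin copies may be split, since Hba-a2 was at 2.17, 270.1 and 258 and Hba-a1 at 989, 6.73 and 13 in Control. In ICB, Hba-a2 was at 664, 523 and 1014 and Hba-a1 at 28.5, 14.4 and 35.7. The lack of overlap of Hba-a2 may therefore depend on how reads were split in Control replicate 1. The part of blood content in the neutrophil values was not tested.

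Complement genes were higher except for the C5a receptor. Of 14 tested members, 13 were higher, 6 did not overlap with ICB higher (3.5% of all genes) and 1 did not overlap with ICB lower (4.94% of all genes did so); none was called, and the median difference was 0.88. Factor B (Cfb), the protease of the alternative pathway, was at 14.1, 20.2 and 35.6 FPKM in ICB and 1.17, 6.37 and 1.7 in Control (2.69 ± 0.48; adjusted p = 0.0828). The central component C3 was at 42, 61.5 and 129.95 and 27.4, 19 and 4.58 (2.26 ± 0.59; adjusted p = 0.432). C5ar1 went the other way, at 1.65, 8.3 and 1.15 in ICB and 9.08, 21.4 and 9.9 in Control (-1.84 ± 0.55; adjusted p = 0.636). Hepatocytes also make Cfb and C3, and the hepatocyte share given above moved with them; its part was not tested.

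Matrix metalloproteinases and their inhibitors had 14 of 15 tested members higher (39.1% of all genes were) and 5 without overlap (3.5% of all genes with ICB higher), with a median difference of 1.02 and none called. The collagenase Mmp13 was at 6.23, 12.4 and 22.6 FPKM in ICB and 2.06, 3.17 and 1.65 in Control (2.03 ± 0.42; adjusted p = 0.157). The inhibitor Timp1 was at 539.98, 719.6 and 1263 and 266, 423 and 244 (1.38 ± 0.34; adjusted p = 0.335), and stromelysin Mmp3 at 4.62, 9.6 and 18.1 and 2.9, 3.76 and 0.726 (1.72 ± 0.50; adjusted p = 0.621). In each, ICB replicate 3 was highest and no ICB library fell into the Control range. Of 24 collagen and collagen crosslinking genes 22 were higher and 0 were called, with a median difference of 0.20. Only 1 did not overlap, which is near the share over all genes (3.5% with ICB higher). The basement membrane collagen Col15a1 was the one without overlap, at 38.8, 28 and 55.6 in ICB and 9.98, 27.8 and 14.6 in Control (1.24 ± 0.38, adjusted p = 0.688). The margin between ICB replicate 2 and Control replicate 2 was very narrow. The fibrillar chains overlapped between the groups; Col3a1 differed by 1.01 ± 0.39 (adjusted p = 0.998) and Col1a1 by 0.57 ± 0.37 (adjusted p = 0.998). The epithelial keratin Krt18 was at 9.41, 32.2 and 91.9 and 15.4, 0.151 and 0.0703 (adjusted p = 0.675), and Krt8 at 5.04, 17.3 and 42.9 and 6.41, 0.834 and 2.39 (adjusted p = 0.755). Both keratins are made by hepatocytes as well as by bile duct cells. The biliary marker Krt19 was at 3.18, 2.16 and 7.04 and 18.2, 0 and 0 (adjusted p = 0.998) and was listed at 0 in 2 Control libraries. Epcam, another marker of bile duct epithelium, was at 0, 0.656 and 0.289 in ICB and 1.5, 0.575 and 0 in Control, under the tested level. Of these defining markers of biliary tissue, Epcam was thus low in all 6 libraries and Krt19 at 0 in 2 of them, while Sox9, a transcription factor of bile duct cells, was at 71.4, 64.6 and 66 in ICB and 91.9, 54.8 and 43.5 in Control.

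**Figure D3:**
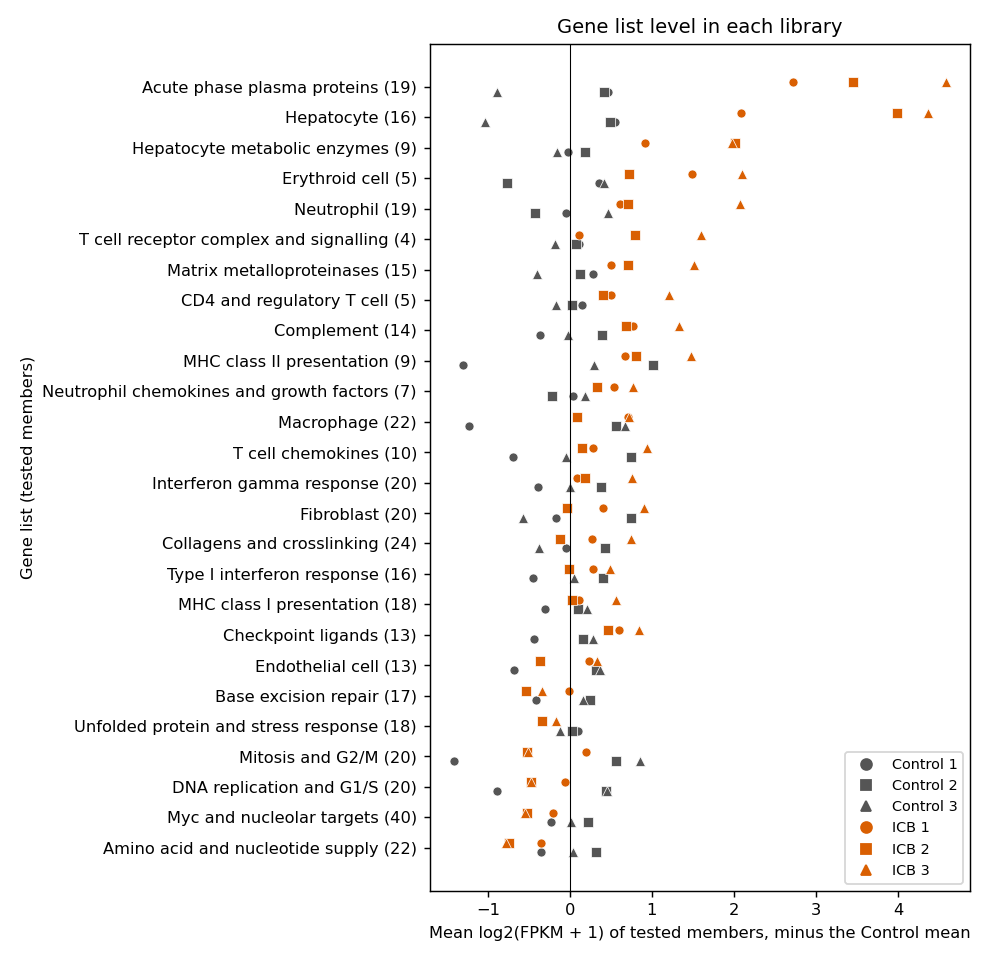
Mean log2(FPKM + 1) of the tested members of 26 gene lists in each library, minus the mean of the Control libraries (points; shape gives the replicate, grey Control, orange ICB; the number of tested members is in brackets). The liver lists lie 1 or more above the Control mean in most ICB libraries, the bottom 3 lists lie below it in every ICB library, and Control replicate 1 lies far below the other Control libraries in the macrophage, MHC class II and cell cycle lists.

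No gene passed the test in the downward direction, and the genes of smallest p there are given as values. The clearest was Apex1, the main endonuclease of base excision repair. Apex1 was at 23.7, 14.6 and 17.1 FPKM in ICB and 44.3, 66.6 and 53.8 in Control. Every ICB library was well below every Control library (-1.53 ± 0.25; adjusted p = 0.0559). It was called in 5 of 20 alternatives, the settings of at least 10 FPKM, array weights, the replicate block, and without ICB replicate 1 or Control replicate 1. Apex1 (chr14:50924968-50927139, GRCm38, plus strand) overlaps Tmem55b, now named Pip4p1, on the other strand, and whether counting used strand is not given in the sources used here. Tmem55b went the opposite way, at 28.5, 21.2 and 26 in ICB and 14.9, 15.7 and 17.6 in Control (0.61 ± 0.22; adjusted p = 0.956), and the groups did not overlap. In the other treated groups Apex1 was at 22.7, 18.5 and 25.3 in GC and 29.9, 14.4 and 22.3 in Combination, below every Control library. Of 17 tested base excision repair genes, 15 were lower in ICB (60.9% of all genes were) and 3 of them did not overlap (4.94% of all genes), with a median difference of -0.23.

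Other genes by that rule were the transporter Slc38a10, the uridine-cytidine kinase Uck2, the cationic amino acid transporter Slc7a1, the DNA polymerase subunit Pold2, Trim54, Akap2, the linker histone H1f0, the nucleolar protein Rsl1d1, the mitochondrial protein C1qbp and C5ar1. Their adjusted p ran from 0.421 (Slc38a10) to 0.636 (C5ar1). Uck2 was at 37.4, 31.7 and 31.6 FPKM in ICB and 79.4, 66.6 and 48.4 in Control (-0.90 ± 0.24). Pold2 had the tightest Control libraries, at 41.4, 40.6 and 38.6, against 27.2, 20.5 and 23.8 in ICB (-0.74 ± 0.20). The groups did not overlap in any of these genes.

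Growth-related lists, written after values had been seen, held more such genes. Of 40 tested Myc and nucleolar targets, 39 were lower in ICB and 15 did not overlap, with a median difference of -0.42. Of 22 genes of amino acid and nucleotide supply, all 22 were lower and 10 did not overlap, with a median of -0.62; over all genes 60.9% were lower and 4.94% did not overlap with ICB lower. Myc itself was at 199.5, 158 and 138 FPKM in ICB and 258, 247 and 273 in Control (-0.66 ± 0.21; adjusted p = 0.755). The leucine transporter Slc7a5 was at 45.6, 26.6 and 19.8 and 45.8, 66.2 and 54 (-0.90 ± 0.31; adjusted p = 0.919), with ICB replicate 1 almost at the level of Control replicate 1. Asparagine synthetase (Asns) was at 40.1, 41.1 and 27.1 and 45.8, 69.7 and 53.7 (-0.63 ± 0.25; adjusted p = 0.998), and the lactate transporter Slc16a1 at 25.6, 25.8 and 23 and 36.2, 37.6 and 43.6 (-0.63 ± 0.20; adjusted p = 0.758). Both medians kept their sign under every setting run, but the list means overlapped between the groups. Relative to the Control mean, the Myc and nucleolar list was at -0.232 in Control replicate 1 and -0.205 in ICB replicate 1. For the supply list these libraries were at -0.351 and -0.350.

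**Figure D4:**
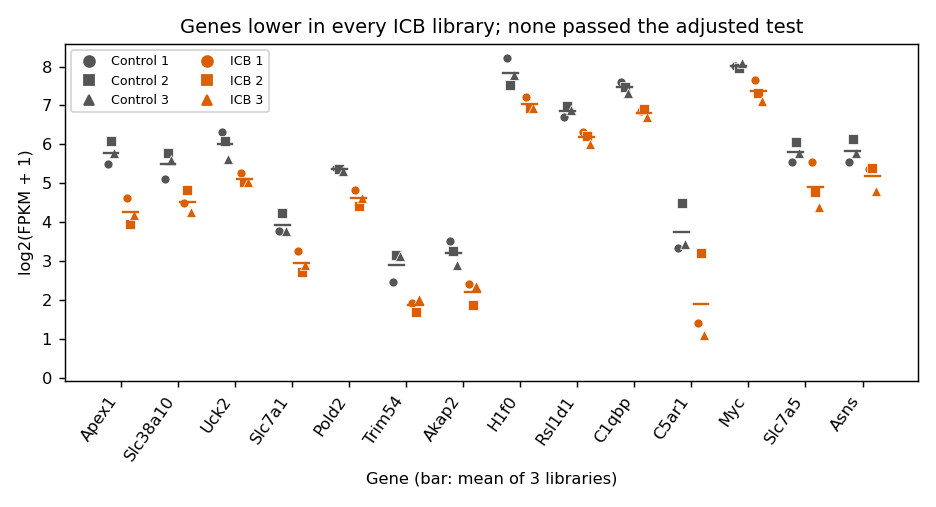
log2(FPKM + 1) of 11 of the 12 genes of smallest p in the downward direction and of Myc, Slc7a5 and Asns in each library (points; shape gives the replicate, grey Control, orange ICB, bar the group mean). The groups do not overlap in any of the 14 genes, the gap is widest for Apex1, and no adjusted p is under 0.05.

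Cell cycle genes overlapped between the groups with 1 exception. All 20 tested genes of mitosis and G2/M were lower in ICB on average, with a median difference of -0.27. Of 20 genes of DNA replication 19 were lower (-0.35), and none of the 40 was called. Over all genes, 60.9% were lower and 4.94% did not overlap with ICB lower. Control replicate 1 had the lowest mean of both lists, at -1.41 and -0.89 relative to the Control mean, below every ICB library. Cdt1, a factor that licenses replication origins, was the one gene of the 40 whose groups did not overlap, by a narrow margin, at 28.1, 21.5 and 26.4 FPKM in ICB and 31.2, 33.4 and 28.3 in Control (adjusted p = 0.998). The proliferation marker Mki67 was at 13.1, 5.14 and 6.64 FPKM in ICB and 1.84, 16.5 and 20.5 in Control (-0.23 ± 0.69; adjusted p = 0.998). Control replicate 1 was the lowest of the 6 libraries for Mki67, and the sign of the difference turned when single libraries were left out. Of 18 genes of the unfolded protein and stress response, 17 were lower (60.9% of all genes were) and 4 did not overlap with ICB lower (4.94% of all genes), with a median of -0.23.

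Set against chemotherapy alone, blockade alone gave no called gene in limma over all 12 libraries and 12765 genes, with 643 at an unadjusted p under 0.05 (5.04%). Of the liver genes, Fgb was at 294, 28.5 and 619 FPKM in GC, a range that includes all ICB values. C5ar1, lower in ICB than in Control, was at 26.1, 38.8 and 24.5 in GC (-3.01 ± 0.60; adjusted p = 0.604). Against the Combination, 24 genes were higher in ICB (0.188%) and 262 lower (2.05%). Cxcl2, at 0.856, 0.566 and 4.13 in Combination, was higher in ICB by 3.22 ± 0.66 (adjusted p = 0.03). Mir6929 was higher in ICB by 2.37 ± 0.41 (adjusted p = 0.0119). ICB replicates 2 and 3 differed from every GC library in the assignment of Rps27 reads, and the part of processing in the comparison with GC was not tested. These comparisons share the ICB libraries with the one above, and the liver share of the Combination libraries moved with them; its part was not tested.

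**Figure D5:**
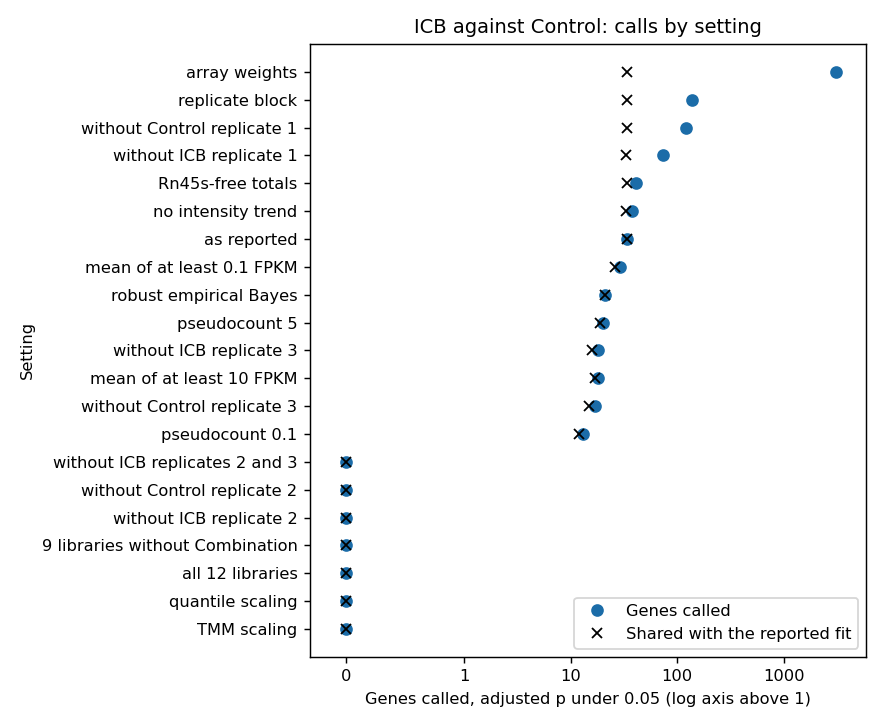
Number of genes called between ICB and Control under each setting (circles) and the number of these among the 34 reported (crosses), on an axis that is logarithmic above 1. Calls range from 0 to 3077, and 7 settings make none.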

How the data were processed

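Total RNA of 6 tumours (3 ICB, 3 Control) had been made into stranded libraries, per the labels' protocols. The values are FPKM as deposited by the authors, 1 per gene symbol and library. The submitters' processing notes name HISAT2, HTSeq, SAMtools, cutadapt, FastQC and the build mm10; versions, strand use in counting and the step that made FPKM are not given in the sources used here. Small FPKM values showed no whole-read steps (at most 17.3% of genes in one bin of 66 library pairs), so no count model was used and depth is unknown.

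Groups and replicate numbers follow the titles, and 0 columns stayed unmapped. Genes averaging 1 FPKM or more over the 6 libraries were fitted as log2(FPKM + 1) with limma 3.58.1 in R 4.3.3 (4 residual degrees of freedom, intensity trend, Benjamini-Hochberg adjustment, threshold 0.05). ICB against GC and Combination was fitted on all 12 libraries. On simulated data with 200 changed genes the fit recovered 30% at 2-fold, 74% at 4-fold, 90% at 8-fold and 98% at 16-fold, with 5 false calls. The simulated noise was independent between genes, without shifts shared by a whole library, and genes of low mean level were not changed. These rates therefore do not carry over to the real libraries or to genes near 0 in Control. Alternatives changed the filter, pseudocount, scaling, moderation, weights, libraries and block.

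Members and gene lists were chosen with earlier results of these data known. Genes were named by rule: up to 12 called, non-overlapping genes with the largest rise and 5 FPKM or more in the higher group; where fewer than 5 passed in a direction, those of smallest p up to 12; up to 4 genes of smallest p in each list; and a fixed set of immune, liver and tumour genes. Other called genes, Tmem55b, Ptges3l, Lag3, Sox9, Crp, Hba-a1 and the members of lists written later were named after their values were seen. Locations are from GENCODE M21 (GRCm38). A group in which values do not overlap has every ICB library on one side of every Control library. Some genes that the rule or lists cover are not reported here.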

Additional observations from a re-analysis of the deposited data

Results flagged for a closer look

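The checkpoint receptors Ctla4, Pdcd1 and Btla lay outside the tested genes, because their mean over the 6 libraries was under 1 FPKM. They were picked from the 6 untested receptors of the list because every ICB library was above every Control library. That separation is therefore the rule of choice and not a result, and the values are near 0. Of the 6 tested receptors of the list, 1 did not overlap with ICB higher (3.5% of all genes) and 0 were called. Ctla4 had a mean of 1.74 ± 1.65 FPKM (SD, n = 3) in ICB and 0.0749 ± 0.13 in Control. Pdcd1 had 1.24 ± 1.12 in ICB and 0.169 ± 0.116 in Control. Btla, an inhibitory receptor of lymphocytes, had a mean of 0.552 FPKM in ICB, at 0.613, 0.212 and 0.831, and was at 0.0306, 0.145 and 0.0455 in Control. No test was run on these genes with the filter as reported.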

How the results depend on the processing

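Depth is unknown and the values near 0 have no counting error, which limits the T cell genes most. Against the 34 genes called by limma, 18 were called at a mean of at least 10 FPKM (17 of them shared and 1 lower), 13 with a pseudocount of 0.1, 20 with a pseudocount of 5, 21 with robust moderation and 3077 (1128 higher, 1949 lower) with array weights, which gave ICB replicate 3 a weight of 42.9. None was called with TMM scaling (669 at an unadjusted p under 0.05), quantile scaling (736), all 12 libraries (237), the 9 libraries without Combination (714), or without ICB replicates 2 and 3 (160), a setting chosen after seeing the data. Leaving out 1 library gave 0 to 120 calls: 73 without ICB replicate 1 (1 lower), 0 without ICB replicate 2 (435 unadjusted), 18 without ICB replicate 3 (1 lower), 120 without Control replicate 1 (7 lower), 0 without Control replicate 2 (353 unadjusted) and 17 without Control replicate 3. The cause of these changes was not tested.

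Genes without overlap and higher in ICB numbered 420, and 139 at a mean of at least 10 FPKM, 768 at 0.1 FPKM, 709 with TMM scaling and 488 to 1350 without single libraries. Those lower numbered 593, and 1047 with quantile scaling and 678 to 2900 without single libraries. Of 42 lists, 31 had a positive median. ICB against GC gave 0 calls, and 0 to 2 without single libraries (2 without ICB replicate 1). ICB against Combination gave 286, and 84 at a mean of at least 10 FPKM, 496 with quantile scaling and 108 to 2050 without single libraries, the most without Combination replicate 1.

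The replicate numbers did not pair the samples: deviations of same-numbered libraries correlated at -0.23, -0.14 and -0.24. With the replicate number as a block, 139 genes were called (134 higher, 5 lower), among them all 34.

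Over the genes named in the text and their settings, 1572 values kept their direction and side of the threshold, 324 kept the direction and lost the call, 111 gained it and 13 changed sign. The sign changed without ICB replicates 2 and 3 for Cd3g (-0.27), Tnfrsf9 (-0.017), Cxcl9 (-0.24) and Mki67 (0.46). With array weights it changed for Hba-a1 (1.41). Leaving out 1 library gave Hba-a1 from -2.20 without Control replicate 2 to 1.296 without Control replicate 1, Mki67 from -1.16 without Control replicate 1 to 0.30 without Control replicate 3, Cxcl9 from -0.090 without ICB replicate 3 to 1.00 without Control replicate 2, and Cxcl10 from -0.72 without Control replicate 3 to 0.29 without Control replicate 2.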
